A study of Homo sapiens with 6 samples.

Results

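Retinoid signaling was followed through 9 genes in LX-2 cells, an immortalized human hepatic stellate cell line. They were the nuclear receptors RARA, RARB, RARG, RXRA and RXRB, the retinoic acid carrier CRABP2, and the enzymes RDH10, ALDH1A3 and CYP26B1. They were taken by gene symbol from the 16907 genes listed in each library, and all 9 were among the 14853 genes that passed the filter on low counts. Cells were grown with fetal bovine serum and given 20 nM of either a control siRNA (siControl) or siRNA against OGT (siOGT) for 72 h, and the labels name no added retinoid. OGT is the enzyme that attaches O-GlcNAc to proteins. Each group had 3 libraries from separate experiments of this 1 cell line, and libraries sharing a replicate number were treated as a pair. The control siRNA and the OGT siRNA, a pool, came from different manufacturers, so the agents differed in more than their target. The comparison asked how lowering OGT altered the transcripts of this pathway.

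Retinol is oxidized to retinaldehyde by enzymes such as RDH10, and retinaldehyde is oxidized to retinoic acid by ALDH1A enzymes. Retinoic acid is carried to the nucleus by CRABP2, is broken down by CYP26 enzymes, and binds RARs, which sit on DNA as heterodimers with RXRs. Hepatic stellate cells store most of the body's vitamin A as retinyl esters while quiescent and lose these stores when they become myofibroblasts.

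The libraries held between 25996770 and 27966801 estimated reads on genes. OGT itself was present at 177, 137 and 121 CPM (read counts scaled to library size) in siControl replicates 1 to 3 and at 39.9, 27.0 and 29.2 CPM in siOGT. It fell in every pair (log2 fold change -2.18, SE 0.073, edgeR adjusted p = 2.71e-12). The cells held the stellate and myofibroblast transcripts VIM (3200 ± 80.1 CPM in siControl and 3075 ± 60.1 in siOGT, SD, n = 3) and COL1A1 (2658 ± 485 and 2023 ± 357 CPM). DES, LUM and HAND2 of the same marker list averaged under 1 CPM. The contractile gene TAGLN of that list rose from 230.6 to 283 CPM (log2 fold change 0.37, edgeR adjusted p = 0.00362). ACTA2 was low, at 6.55 CPM in siControl and 7.58 in siOGT, and did not pass (0.25, edgeR adjusted p = 0.2995). The summed CPM of that list ran from 6817 to 8258 in siControl and from 6102 to 7228 in siOGT, with 5 of its 14 tested genes lower and 1 higher, beside 25.4% of all tested genes called in either direction. Its part in the values below was not tested. Because these are bulk RNA samples, fewer cells of a type and less RNA per cell cannot be told apart.

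Of the 9 retinoid genes, RARA rose and RXRA and ALDH1A3 fell after OGT knockdown. The test was edgeR's quasi-likelihood test with replicate number as a block and Benjamini-Hochberg adjustment over all genes, with a threshold of 0.05. These 3 of 9 calls stand against a background of 25.4% of all 14853 genes, and nothing about the members is read from that count. RARB, RXRA, RXRB, CRABP2, ALDH1A3 and CYP26B1 (6 of 9) were lower in siOGT in all 3 pairs, against 26.6% of all genes. In 2 of 9, RXRA and ALDH1A3, the groups did not overlap, against 23.8% of all genes. The median log2 fold change of the members was -0.24, and that of all tested genes was 0.0068. All 3 calls needed the pairing: without the replicate block 0 members passed the adjusted threshold and 3 passed an unadjusted p of 0.05. They also needed replicate 1, since 0 members passed without that pair, although 4 then had an unadjusted p of at most 0.05.

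**Figure D1:**
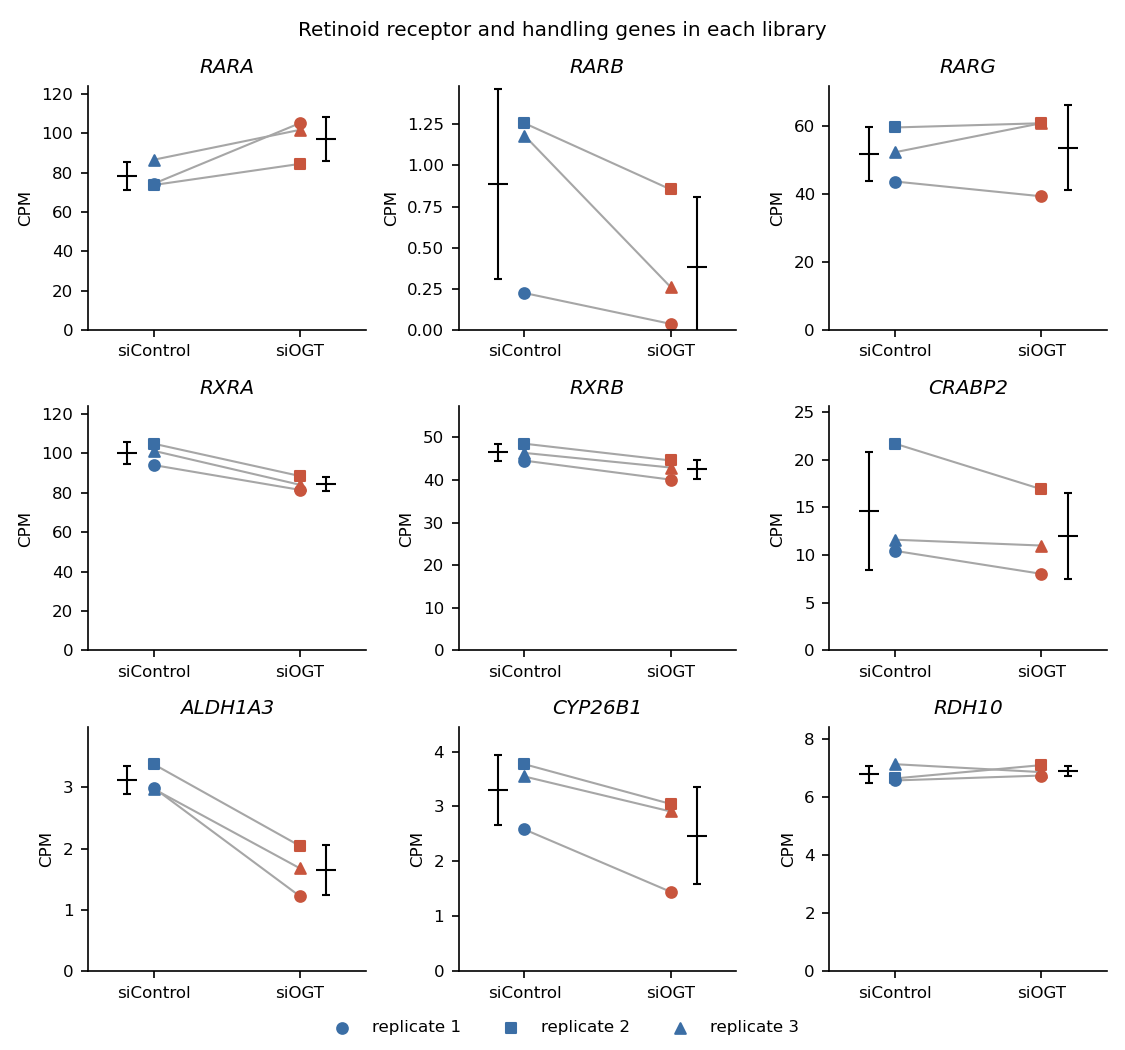
CPM (y axis of each panel, from 0) of each of the 9 genes in siControl and siOGT libraries. Points are libraries, lines join the same replicate number, and side bars give the mean and SD of 3 libraries (cut at 0 for RARB). RARA is higher in siOGT in each pair, and all 3 siOGT libraries lie below all siControl libraries for RXRA and ALDH1A3.

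The stretches upstream of a few members are shown first, because RARB is known to be switched on by retinoic acid through a response element beside its start site, and RARA, RXRA and ALDH1A3 are the 3 genes that passed the test. Each run holds the 250 bases before the gene's annotated main start (RefSeq, GRCh38.p14), read 5′ to 3′ on the plus strand, on which all of these genes lie. The capitals mark the half-sites searched for, on either strand, as letters that RAR and RXR are known to bind. The searched half-sites were AGGTCA and AGTTCA, together with GGGTCA and with GGTTCA. The windows are chr3:25428013-25428262 for RARB, chr17:40308930-40309179 for RARA, chr9:134326205-134326454 for RXRA and chr15:100879581-100879830 for ALDH1A3.
RARB: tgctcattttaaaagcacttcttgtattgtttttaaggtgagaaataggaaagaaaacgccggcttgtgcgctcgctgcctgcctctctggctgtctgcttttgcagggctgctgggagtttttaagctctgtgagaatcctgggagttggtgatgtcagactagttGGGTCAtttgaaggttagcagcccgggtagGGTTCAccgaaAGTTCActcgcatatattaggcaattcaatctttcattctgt
RARA: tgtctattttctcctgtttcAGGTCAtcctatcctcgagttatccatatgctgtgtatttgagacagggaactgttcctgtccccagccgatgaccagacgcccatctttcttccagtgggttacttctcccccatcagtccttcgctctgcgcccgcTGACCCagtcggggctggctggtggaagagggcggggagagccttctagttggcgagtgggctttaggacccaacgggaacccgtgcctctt
RXRA: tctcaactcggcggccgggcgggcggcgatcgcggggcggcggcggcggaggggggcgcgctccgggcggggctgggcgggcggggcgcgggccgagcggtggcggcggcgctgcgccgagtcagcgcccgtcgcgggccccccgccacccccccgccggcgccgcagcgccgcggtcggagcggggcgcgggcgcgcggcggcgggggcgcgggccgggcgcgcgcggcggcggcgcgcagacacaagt
ALDH1A3: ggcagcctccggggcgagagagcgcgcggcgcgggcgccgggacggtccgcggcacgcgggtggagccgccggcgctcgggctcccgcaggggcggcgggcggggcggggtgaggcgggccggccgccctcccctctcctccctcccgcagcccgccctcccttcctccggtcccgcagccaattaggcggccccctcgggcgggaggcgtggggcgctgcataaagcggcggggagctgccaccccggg

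The RARB stretch held 2 half-sites in the same orientation 5 bases apart, an arrangement called DR5. The repeat lay at chr3:25428210-25428226, from -53 to -37 relative to the start. A further half-site of RARB lay at -83 to -78. Among 35116 promoter windows of 250 bases before to 50 after a start, 31 (0.0883%) held a DR5 of these half-sites, and 38.6% held at least 1 half-site. RARA had 2 half-sites that formed no repeat of spacing 1, 2 or 5, and the main-start windows of RXRA and ALDH1A3 had none. At other annotated starts, not shown, RXRA and RARB also had windows with a half-site, none in such a repeat. RARA had none there. These matches describe letters in the windows and say nothing of binding in LX-2 cells.

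RARA (chr17:40309180-40357643, plus strand, GENCODE 44 on hg38) encodes RAR alpha. It was read at 74.4, 73.7 and 86.6 CPM in siControl replicates 1 to 3 and at 105, 84.5 and 102 CPM in siOGT. Every siOGT library exceeded its own pair, although siOGT replicate 2 lay under siControl replicate 3. The mean went from 78.2 ± 7.24 to 97.2 ± 11.1 CPM (SD, n = 3), a 1.24-fold rise (log2 fold change 0.31, SE 0.071, 95% confidence interval 0.16 to 0.46, edgeR adjusted p = 0.00401). The 3 pairs gave log2 ratios of 0.50, 0.20 and 0.23. Without replicate 1 the fold change was 0.21 with an edgeR adjusted p of 0.145, and without the replicate block the adjusted p was 0.196. Antisense genes overlap 21.4% of RARA's exonic bases, and the counting was set to use strand.

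RARB (chr3:24687887-25597932, plus strand) encodes RAR beta, itself a retinoic acid target. It was the only member under 1 CPM on average over the 6 libraries (0.636 CPM). Its estimated counts were 6, 32 and 33 in siControl and 1, 23 and 7 in siOGT. The exact Poisson 95% intervals, which cover counting error only, were 2.20 to 13.1, 21.9 to 45.2 and 22.7 to 46.3 in siControl. In siOGT they were 0.0253 to 5.57, 14.6 to 34.5 and 2.81 to 14.4. Every siOGT count was below its pair, and the groups overlapped widely. The ratio of siOGT to siControl was 0.165 in pair 1 (95% counting interval from 0.00359 to above 1), 0.68 in pair 2 (0.38 to 1.2) and 0.221 in pair 3 (0.0824 to 0.508). Only the third interval lay wholly under 1. The fit gave a log2 fold change of -1.34 (SE 0.495, 95% confidence interval -2.38 to -0.30), and its edgeR adjusted p of 0.0557 missed the threshold. The call was on the edge: the adjusted p was 0.0401 with no filter on low counts, 0.0469 with edgeR's own filter, and 0.0352 without replicate 2, where the log2 fold change was -2.23. It was 0.119 without replicate 1 (-1.22), 0.325 without replicate 3 (-0.87) and 0.478 without the replicate block.

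RARG (chr12:53210567-53232980, minus strand) encodes RAR gamma. Its levels were 43.6, 59.5 and 52.2 CPM in siControl and 39.3, 60.7 and 60.8 CPM in siOGT. The 3 pairs pointed both ways, with log2 ratios of -0.15, 0.03 and 0.22. Fitted over the pairs, its log2 fold change came to 0.04 (SE 0.076, 95% confidence interval -0.12 to 0.20, edgeR adjusted p = 0.781).

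RXRA (chr9:134317098-134440585, plus strand) encodes RXR alpha, the shared partner of RARs and of several other nuclear receptors. It was read at 94.0, 105 and 101 CPM in siControl and at 81.4, 88.4 and 84.0 CPM in siOGT. All siOGT libraries lay below all siControl libraries. The mean was 100 ± 5.52 CPM in siControl and 84.6 ± 3.55 CPM in siOGT, 0.847 times the control level (log2 fold change -0.24, SE 0.064, 95% confidence interval -0.37 to -0.11, edgeR adjusted p = 0.01). The pairs were close to each other, at -0.21, -0.25 and -0.27 on the log2 scale. Leaving out replicate 1 gave -0.26 with an edgeR adjusted p of 0.0733, and leaving out the replicate block gave an adjusted p of 0.202.

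RXRB (chr6:33193588-33200665, minus strand) encodes RXR beta. Its levels were 44.5, 48.5 and 46.4 CPM in siControl and 40.1, 44.6 and 42.9 CPM in siOGT. Each siOGT library was under its pair, and siOGT replicate 2 and siControl replicate 1 were nearly level. The log2 fold change of -0.13 (SE 0.068, 95% confidence interval -0.27 to 0.016) did not pass (edgeR adjusted p = 0.187). RXRG, the third RXR gene, had 2 counts over all 6 libraries.

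CRABP2 (chr1:156699606-156705816, minus strand), the cytosolic carrier that brings retinoic acid to RARs, varied more between replicates than between groups. It was read at 10.4, 21.7 and 11.6 CPM in siControl and at 8.03, 16.9 and 11 CPM in siOGT. Replicate 2 was the highest in both groups, and each siOGT library was below its pair. At -0.27 on the log2 scale (SE 0.101, 95% confidence interval -0.49 to -0.06), its difference missed the threshold by edgeR (adjusted p = 0.057). It passed with no filter on low counts (adjusted p = 0.0429) and without replicate 3 (-0.37, adjusted p = 0.0226), but not with blocked DESeq2 (0.221), without replicate 1 (0.256), without replicate 2 (0.266) or without the replicate block (0.683).

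RDH10 (chr8:73294602-73325281, plus strand) catalyzes the first oxidation of retinol. It was at 6.57, 6.64 and 7.13 CPM in siControl and at 6.74, 7.10 and 6.86 CPM in siOGT, and the groups overlapped. The fit gave 0.02 on the log2 scale (SE 0.125, 95% confidence interval -0.24 to 0.29, edgeR adjusted p = 0.914). In 3 of the 6 libraries its estimated count was not a whole number, so some of its reads were shared with another locus.

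ALDH1A3 (chr15:100877714-100916626, plus strand) makes retinoic acid from retinaldehyde, and it showed the largest change among the members that passed the test. It was read at 80, 86 and 83 estimated counts in siControl and at 33, 55 and 45 in siOGT. In CPM these were 2.99, 3.38 and 2.97 against 1.22, 2.04 and 1.68, and the groups did not overlap. The mean fell from 3.12 ± 0.228 to 1.65 ± 0.412 CPM, which is 0.524 times the control level by the fit (log2 fold change -0.93, SE 0.225, 95% confidence interval -1.41 to -0.46, edgeR adjusted p = 0.00566). The pair ratios were -1.24, -0.71 and -0.80 on the log2 scale. Leaving out replicate 1 gave -0.77 with an edgeR adjusted p of 0.0717, and the adjusted p without the replicate block was 0.119. An antisense gene overlaps 32.1% of the exonic bases of ALDH1A3. ALDH1A2, another enzyme that forms retinoic acid, had 3 counts over all 6 libraries.

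CYP26B1 (chr2:72129238-72147862, minus strand) oxidizes retinoic acid and so removes it. Its counts were 69, 96 and 99 in siControl and 39, 82 and 78 in siOGT, or 2.58, 3.77 and 3.55 against 1.44, 3.05 and 2.91 CPM. Replicate 1 was the lowest in both groups, and each siOGT library was below its pair. The log2 fold change of -0.45 (SE 0.202, 95% confidence interval -0.87 to -0.02) had an edgeR adjusted p of 0.116. Its relatives were nearly unread, with 5 counts over all 6 libraries for CYP26A1 and 2 for CYP26C1.

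**Figure D2:**
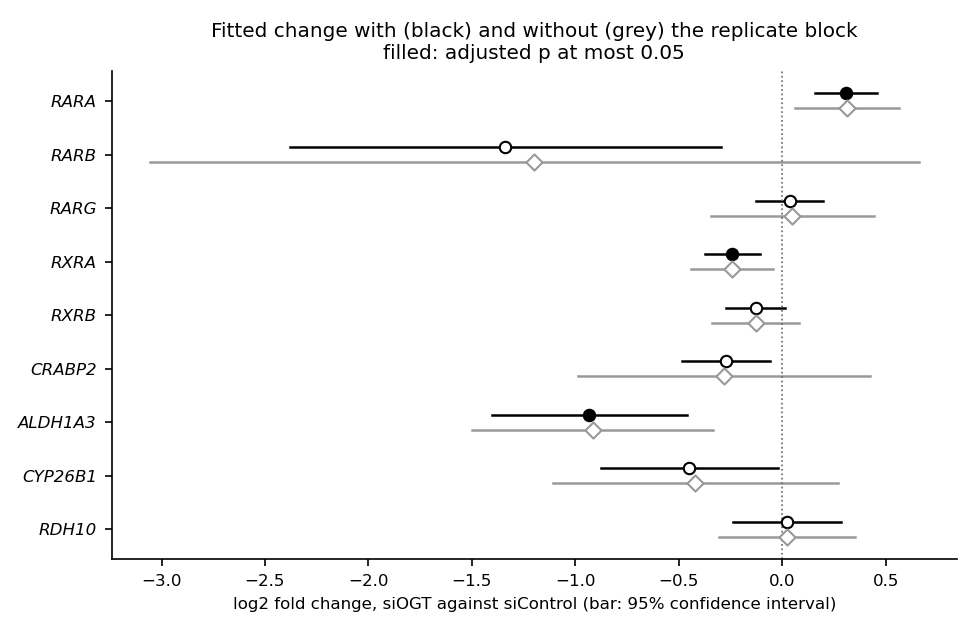
Fitted log2 fold change of siOGT against siControl (x axis) for each of the 9 genes (y axis), with bars for the 95% confidence interval. Black circles are the fit with the replicate block and gray diamonds the fit without it, and filled symbols have an adjusted p of at most 0.05. RARA, RXRA and ALDH1A3 are filled in the fit with the block, and no gene is filled without it.

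The share of variance that followed replicate number differed between members. Replicate number accounted for 90.3% of the variance of log2 CPM across the 6 libraries for RARG, for 89.7% for CRABP2, for 70.8% for RARB and for 64.8% for CYP26B1. The group accounted for 82.0% for ALDH1A3, 81.1% for RXRA and 61.0% for RARA. These shares are descriptions over 6 libraries and do not measure how far the block decided a call. RARA, RXRA and ALDH1A3 were named here after being called, and each lost its call without the block.

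Levels were also compared between genes, as CPM per kilobase of the main annotated transcript (MANE Select). RARA was the most abundant member in siControl (23.9 ± 2.21 CPM per kb), followed by RXRA (18.1 ± 0.997), RARG (17.8 ± 2.73), RXRB (16.1 ± 0.688) and CRABP2 (15.0 ± 6.35). Neighbors in the order from RXRA to CRABP2 differed by less than the larger of their SDs. RDH10 (1.71 ± 0.0772 CPM per kb), ALDH1A3 (0.898 ± 0.0658), CYP26B1 (0.724 ± 0.139) and RARB (0.284 ± 0.184) followed far below. In siOGT, RARA was at 29.7 ± 3.39 CPM per kb, RXRA at 15.3 ± 0.641 and ALDH1A3 at 0.475 ± 0.119. CYP26B1 (0.541 ± 0.195) was then above ALDH1A3 by less than the spread of either. With all exonic bases as the length, RXRA moved from rank 2 to rank 5 in siControl, while RARA stayed first and RARB last.

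**Figure D3:**
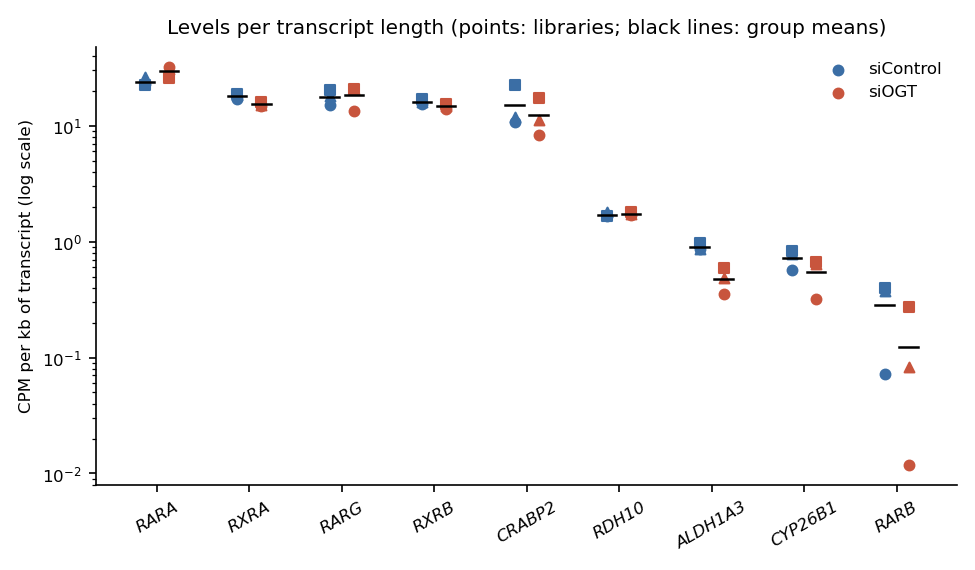
Level of each member in CPM per kilobase of transcript (y axis, log scale) in the 3 siControl (blue) and 3 siOGT (red) libraries, ordered by the siControl mean, with black lines for group means and marker shapes for replicate number. RARA, RXRA, RARG, RXRB and CRABP2 form an upper set, near or above 10 CPM per kb, and the other members lie at or below 2.

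The opposite directions of RARA and RXRA can be read within each library, in ratios and shares chosen after the values were seen. RARA was 0.792, 0.704 and 0.856 times RXRA in CPM in siControl and 1.29, 0.956 and 1.21 times in siOGT. The ratio was higher in every siOGT library than in any siControl library (0.784 ± 0.0764 against 1.15 ± 0.176). A two-sided exact permutation test, which does not use the pairing, gave p = 0.1, the smallest that 3 against 3 libraries allow. Because RARA and RXRA were picked for their opposite calls in these same libraries, this p adds no support. For the ratio of RARA to RARG the same permutation test gave p = 0.5. RARA made up 60.2, 52.0 and 59.1% of the RAR sum per kilobase in siControl and 70.5, 55.0 and 59.8% in siOGT, so the groups overlapped. RARB was under 1% of that sum in all 6 libraries.

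Other genes that take up, store, bind and convert retinoids formed a list of 33, of which 26 were matched and 18 were tested. Among these 18, 2 rose, 3 fell and 13 did not pass, and their median log2 fold change was -0.08. These 5 calls of 18 are near the 25.4% of all genes. Of the 18, 8 averaged under 1 CPM, and all 5 calls fell among the other 10. The share of calls over all genes of at least 1 CPM was not computed. LIPE, hormone-sensitive lipase, which can release retinol from its esters, fell from 36.2 ± 6.62 to 22.5 ± 4.38 CPM (log2 fold change -0.69, edgeR adjusted p = 7.52e-06). DHRS4, a retinal reductase, fell by 0.32 on the log2 scale (adjusted p = 0.0156), and RETSAT, retinol saturase, fell by 0.22 (0.0381). RDH14, a retinol dehydrogenase, rose by 0.53 (adjusted p = 0.000878), and PNPLA4, a lipase with retinyl ester activity, rose by 0.40 (0.0105). The calls of LIPE and RDH14 held in every alternative that kept the block. DESeq2 with the block lost DHRS4 (adjusted p = 0.086), RETSAT (0.112) and PNPLA4 (0.0798), and library totals as scaling lost RETSAT (edgeR adjusted p = 0.0617). DHRS4 was also lost by edgeR without replicate 1 (adjusted p = 0.107) or 2 (0.0876), RETSAT without replicate 1 (0.129) or 3 (0.18), and PNPLA4 without replicate 2 (0.0715). DHRS4 and RDH14 had fractional counts and overlap other annotated genes, so their reads are less certain. LRAT, which esterifies retinol for storage in quiescent stellate cells, had 2 counts over all 6 libraries. STRA6, the membrane receptor for retinol-binding protein, had 3, 4 and 4 counts in siControl and 1, 2 and 0 in siOGT. A count of 0 allows any level up to a bound that ran from 0.108 to 0.118 CPM, depending on the library.

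Of 25 genes listed as retinoic acid response genes, 21 were tested, and 0 rose, 5 fell and 16 did not pass. Of the 21, 7 averaged under 1 CPM, and all 5 calls fell among the other 14. The median log2 fold change of the 21 was -0.25. PLAAT4, a phospholipase and acyltransferase first described as a retinoid-induced gene and named RARRES3 in the files, had 128, 142 and 112 counts in siControl and 67, 43 and 46 in siOGT. All siOGT libraries were below all siControl libraries. Its mean went from 4.79 ± 0.783 to 1.93 ± 0.479 CPM (log2 fold change -1.31, SE 0.203, edgeR adjusted p = 0.000167), and it passed without the replicate block as well (0.0472). TGM2, tissue transglutaminase, fell by 0.72 on the log2 scale, from 12.6 to 7.56 CPM (edgeR adjusted p = 0.000221). The homeodomain genes MEIS2 (-0.26, edgeR adjusted p = 0.0199) and HOXB4 (-0.25, 0.0139) fell by less. MEIS2 was lost by DESeq2 with the block (adjusted p = 0.0825) and by edgeR without replicate 1 (0.179) or 3 (0.0646), and HOXB4 without replicate 1 (0.0841) or 2 (0.0641). The 5 calls of 21 are near the background share of 25.4%, and their single direction did not hold without replicate 3, where 2 genes rose and 4 fell.

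RXRs pair with many other receptors, and 13 of the 15 listed were tested. PPARA rose (log2 fold change 0.25, edgeR adjusted p = 0.0341), although it was not higher in pair 3. NR2F1, an orphan receptor of the COUP family, fell from 68.7 to 52.1 CPM (-0.40, adjusted p = 0.000725), and the thyroid hormone receptor gene THRA fell by 0.24 (adjusted p = 0.0257). The other 10 did not pass, and 3 calls of 13 are near the 25.4% of all genes. DESeq2 with the block lost PPARA (adjusted p = 0.0978) and THRA (0.067). By edgeR, PPARA was lost without replicate 1 (0.15, adjusted p = 0.372) or 2 (0.21, adjusted p = 0.1), and THRA without replicate 1 (-0.22, adjusted p = 0.161) or 3 (-0.17, adjusted p = 0.113). PPARG, a receptor linked to the quiescent stellate state, was at 1.09, 2.67 and 3.73 CPM in siControl and at 0.518, 2.56 and 1.94 CPM in siOGT (-0.62, adjusted p = 0.0963). It was named after its values were seen.

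All 14 listed coregulators of retinoid receptors were tested, and 2 rose, 2 fell and 10 did not pass, so that 4 calls of 14 are near the 25.4% of all genes. The acetyltransferase genes EP300 (186 to 226 CPM, log2 fold change 0.27, edgeR adjusted p = 0.00706) and CREBBP (241 to 285 CPM, 0.24, adjusted p = 0.0207) rose. The corepressor genes SIN3A (125 to 106 CPM, -0.24, adjusted p = 0.0131) and TBL1X (121 to 107 CPM, -0.19, adjusted p = 0.0338) fell. All 4 calls were lost without replicate 1 (edgeR adjusted p from 0.109 for SIN3A to 0.287 for CREBBP), and those of CREBBP, SIN3A and TBL1X were lost without replicate 2 (0.0968, 0.102 and 0.0556). TBL1X was also lost by DESeq2 with the block (adjusted p = 0.0536) and with library totals as scaling (edgeR adjusted p = 0.0556). NCOR1, a corepressor that binds RARs without ligand, had a log2 fold change of -0.12 and did not pass (edgeR adjusted p = 0.215). Without the replicate block, PLAAT4 was the only gene of these 4 lists to pass by edgeR. An unadjusted p of at most 0.05 was then reached by 5 handling genes, 3 response genes (PLAAT4 among them), 1 RXR partner and 2 coregulators.

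**Figure D4:**
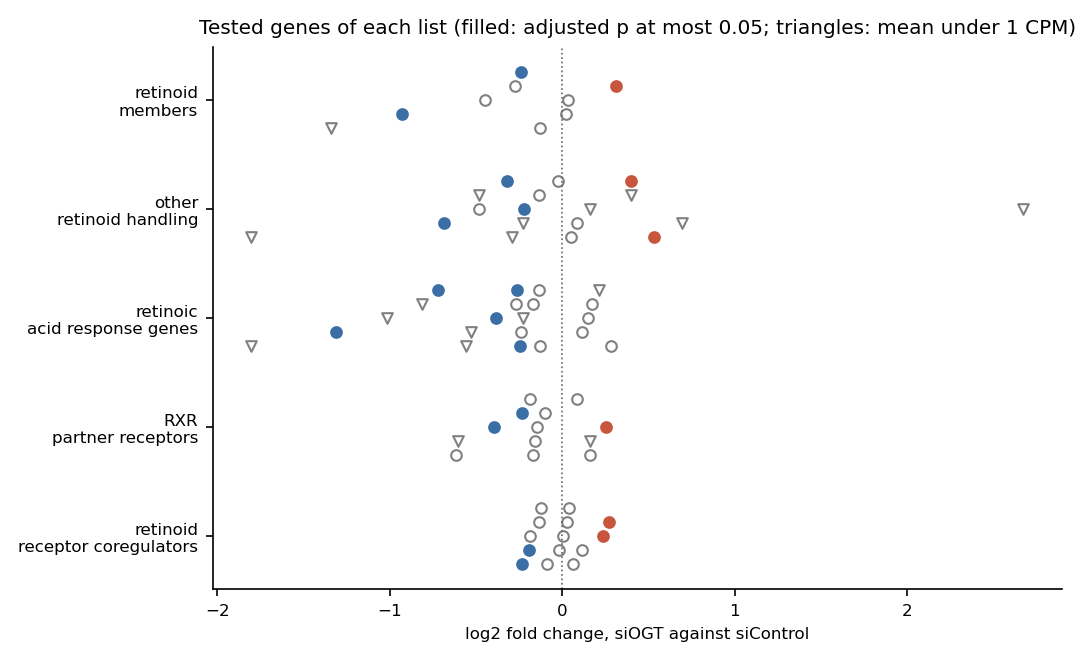
Log2 fold change of siOGT against siControl (x axis) for every tested gene of the members and of the 4 other lists (y axis, 1 band a list, points spread vertically for legibility). Filled points have an adjusted p of at most 0.05, blue for lower and red for higher, and triangles mark genes averaging under 1 CPM. All 5 filled retinoic acid response genes lie below 0, and the other bands hold filled points on both sides.

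Markers of other cell types and of quiescent stellate cells were summed list by list. The leukocyte list summed to 131 to 162 CPM in siControl and 176 to 208 CPM in siOGT, of which CD68 was 137 ± 15.7 and 188 ± 17.5 CPM, while PTPRC averaged under 1 CPM in both groups. Among hepatocyte markers the summed level was 6.55 to 9.39 and 8.37 to 12.8 CPM. Nearly all of it was SERPINA1 (3.91 ± 0.655 and 3.34 ± 0.0496 CPM) and CYP2E1 (4.08 ± 1.07 and 6.88 ± 2.29 CPM), of which CYP2E1 was called higher, with ALB, HNF4A and CYP3A4 at or near 0. The epithelium list, mostly SOX9, ran from 88.7 to 128 and from 91.4 to 129 CPM. Endothelium markers summed to 3.29 to 7.86 and 3.00 to 5.87 CPM. The quiescent stellate list summed to 219.8 to 250 and 182 to 209 CPM, with LRAT near 0. ECM1 made up most of that sum and fell (193.9 ± 19.9 to 136.5 ± 15.3 CPM, log2 fold change -0.51, edgeR adjusted p = 3.55e-05). RELN (0.78, edgeR adjusted p = 7.79e-05) and PLIN2 (0.27, adjusted p = 0.0286) of the same list rose. Calls among the tested genes were 1 of 3 for leukocyte (CD68, higher), 1 of 4 for hepatocyte (CYP2E1), 1 of 4 for endothelium (VWF, lower), 0 of 4 for epithelium and 3 of 4 for quiescent stellate markers, beside 25.4% of all genes. Their part in the changes of RARA, RXRA and ALDH1A3 was not tested.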

How the data were processed

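LX-2 total RNA was enriched with oligo dT and sequenced from strand-specific libraries, 3 per group. The deposited values are expected counts per gene, which the authors made with Bowtie2 2.3.5.1 and RSEM 1.3.1 on hg38. Between 85.8 and 87.7% of values per library were whole numbers; the rest come from reads shared between loci and were rounded to whole counts. The authors' DESeq2 (1.36.0) comparison table, which holds their mean normalized counts, fold changes and p-values, was not used.

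Genes with a total of at least 10 counts (14853 of 16907) were tested with edgeR 4.0.16 (R 4.3.3) by the quasi-likelihood test, with TMM scaling (factors 0.979 to 1.02), replicate number as a block, and a Benjamini-Hochberg adjusted p of at most 0.05. CPM use TMM-scaled totals. The study's methods pair the samples, and deviations of same-numbered libraries from their group means correlated at 0.688, 0.525 and 0.332 over 12373 genes. Gene positions and lengths are from GENCODE 44, promoters from RefSeq. Adjusted p-values are from edgeR, or from DESeq2's Wald test where DESeq2 is named. The p-values of receptor ratios are from two-sided exact permutation tests over libraries. Replicates are separate experiments of 1 cell line.

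The 9 members and the lists (pathway and cell type markers) were chosen with earlier results of these data known. Beyond OGT and the members, the text names the called genes of each pathway list averaging at least 1 CPM (at most 6 a list) and genes nearly absent. A few genes of the lists are not reported here by name. Alternatives were DESeq2 1.42.0, other scaling, other filters, no replicate block, and leaving out each replicate. The code was tested on simulated data.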

Additional observations from a re-analysis of the deposited data

How the results depend on the processing

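Under DESeq2 with the replicate block, DESeq2 size factors or library totals as scaling, the members called were again RARA, RXRA and ALDH1A3. DESeq2 gave RARB no adjusted p with or without the block, so it did not assess that call (log2 fold change -1.55 with the block). Over all genes, 2415 were called by DESeq2 with the block, 130 by edgeR without the replicate block, 849 by DESeq2 without it, and 1803 to 3439 when a replicate was left out, against 3766. Members called numbered 5 with no filter on low counts (RARB and CRABP2 added), 0 without the replicate block by edgeR or DESeq2 (3 at an unadjusted p of 0.05 by either), and 0 to 4 when a replicate was left out, with 0 without replicate 1. For other retinoid handling genes the calls were 2 (blocked DESeq2), 0 (edgeR, no replicate block; 5 unadjusted), 2 (DESeq2, no block), and 3 to 5 with a replicate left out. For retinoic acid response genes they were 3, 1 (3 unadjusted), 1 (3 unadjusted) and 2 to 6 (2 higher and 4 lower without replicate 3). For RXR partners they were 1, 0 (1 unadjusted), 0 (1 unadjusted) and 1 to 3. For coregulators they were 0 without the replicate block by either tool (2 unadjusted by each) and 0 to 5 with a replicate left out, with 0 (2 unadjusted) without replicate 1. The direction turned in 2 members that did not pass: leaving out a replicate took RDH10 from -0.014 (without replicate 2) to 0.059, and RARG from -0.064 (without replicate 3) to 0.12, as log2 fold changes. The cause of these shifts was not tested. Depth limits RARB, ALDH1A3 and CYP26B1 most, at 1 to 99 counts a library.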
